A study of Mus musculus with 12 samples.

Results

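The genes described here are 32 markers of macrophages and other leukocytes, listed by symbol and chosen with earlier results of these data known. All 32 were found among the 51734 gene symbols of the count table, in 33 of its 51826 rows, because Itgam had 2 rows. The list holds 4 genes shared by most leukocytes (Ptprc, Tyrobp, Fcer1g and Spi1), 8 of macrophage surface and lineage (Cd68, Csf1r, Adgre1, Fcgr1, Aif1, Itgam, Lyz2 and Lgals3), 4 of resident macrophages (Mrc1, Cd163, Timd4 and Cx3cr1) and 2 of monocyte recruitment (Ccr2 and Ccl2). The other members are the 3 chains of complement C1q, 4 genes of MHC class II, 3 of T cells (Cd3e, Cd4 and Cd8a), 2 of B cells (Cd79a and Ms4a1) and 2 of neutrophils (S100a8 and S100a9).

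Poly(A) RNA was sequenced from the atria and the ventricles of 3 CUG960 +dox mice (V119, V120 and V123) and 3 MHCrtTA +dox controls (V327, V333 and V334), so that 12 libraries fell into 4 groups of 3. All mice were 10-week-old FvB females given doxycycline (dox) from postnatal day 1. All were hemizygous for MHCrtTA, a transgene in which the α myosin heavy chain promoter drives a dox-dependent transactivator in cardiomyocytes. CUG960 mice, labelled TREDT960I(H)/MHCrtTA(hemi), were also homozygous for TREDT960I, a dox-responsive transgene with 960 interrupted CTG repeats in human DMPK exons that models the cardiac disease of myotonic dystrophy type 1. The controls, labelled MHCrtTA(hemi), lacked TREDT960I, and neither transgene is driven by a leukocyte promoter. Libraries held between 116127966 and 160676189 counts, and 1 CPM (a count scaled to the library total and the library's TMM factor) stood for 105 to 174 counts. The samples were separate mice by their numbers, with 1 library of each chamber per mouse.

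Macrophages are the main leukocytes of the healthy heart, where they clear debris and dying cells and contact cardiomyocytes, fibroblasts and vessels. Some are seeded before birth and renew themselves in place, and these are known for Timd4, Lyve1 and Mrc1, whereas others descend from blood monocytes that enter through the chemokine receptor Ccr2. Macrophages that present antigen carry MHC class II, and T cells, B cells and neutrophils are usually sparse in an unstressed heart. Whole chambers were sequenced, and therefore fewer cells of a type and less RNA per cell could not be told apart.

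By level, macrophage and complement genes led the list and lymphocyte genes closed it. Per kilobase of merged exons, the most abundant members in control atria were Lyz2 (lysozyme, 174 CPM per kilobase), Cd74 (the invariant chain of MHC class II, 56.5), C1qa (55.4), C1qb (42.0) and C1qc (22.4). Csf1r, the receptor for the macrophage growth factors Csf1 and Il34, stood at 10.2 and the macrophage marker Adgre1 at 3.59 on the same scale. The lowest were Cd8a (0.0523), Ms4a1 (0.0664), Cd3e (0.0850) and Cd4 (0.143). In control ventricles the order began with the same 5 genes, from Lyz2 at 49.2 to C1qc at 10.7 CPM per kilobase. Lyz2 has a near copy, Lyz1, and the counting divided shared reads between them, so its level is uncertain. H2-Eb1 was low for an MHC class II chain, with 48 to 233 counts per library or 0.416 to 1.5 CPM, against 10.9 to 47.0 CPM for H2-Aa. MHC genes vary between mouse strains, and loss of reads that differ from the reference was not tested.

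**Figure D1:**
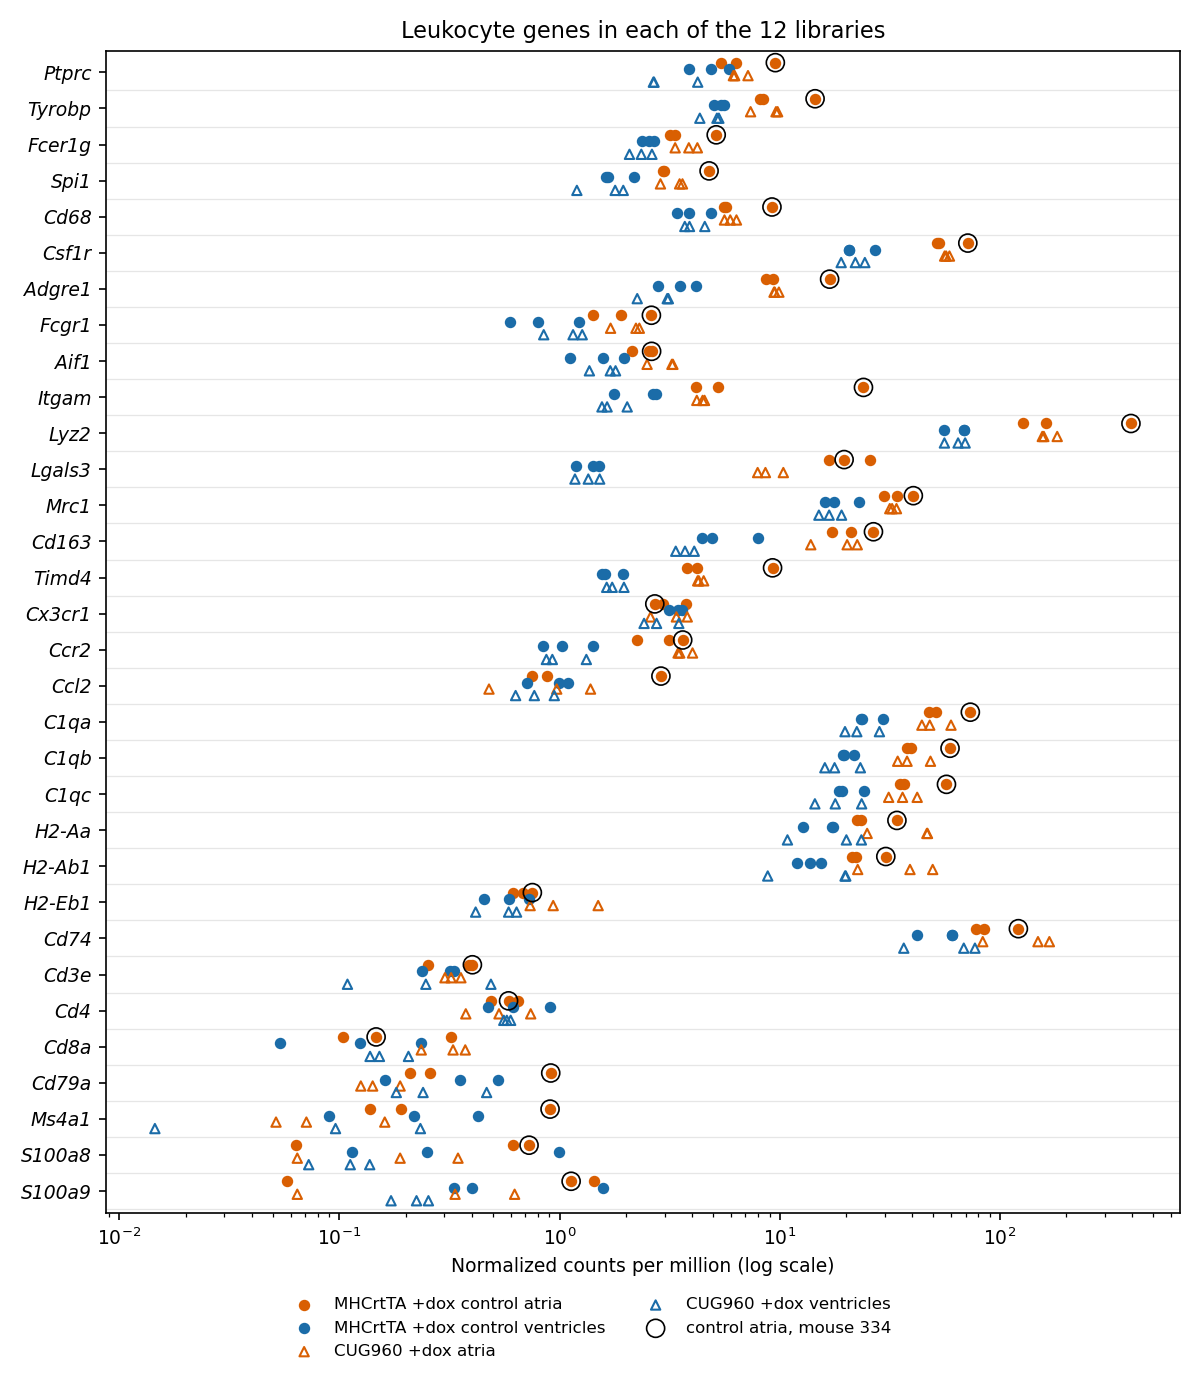
Normalized CPM (log axis) of the 32 genes in each of the 12 libraries, 1 row per gene and 1 point per library. Most macrophage genes lie to the right in atria (orange) of their level in ventricles (blue), and the circled control atrial library of mouse V334 is the highest of its group for 27 of the 32 genes.

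Of the 12 libraries, 1 was the highest of its group for more of these genes than any other. The control atria of mouse V334 were the highest of the 3 control atria for 27 of the 32 members, against 28.5% of all genes, and were more than 2 times the mean of the other control atria for 7 members, against 3.06% of all genes. The median ratio over the members was 1.53. Itgam, an integrin chain of myeloid cells, was at 5.26 and 4.15 CPM in the control atria of mice V327 and V333 and at 24.1 CPM in those of mouse V334. Lyz2 was at 162, 128 and 395 CPM in the same order, and Timd4, a receptor for dying cells on resident macrophages, at 4.24, 3.80 and 9.29 CPM. In all 3 genes the atria of mouse V334 were above every other library of the series. Lgals3 was not among them, with 25.7, 16.8 and 19.7 CPM, and neither was Cx3cr1, the receptor for fractalkine, with 2.96, 3.76 and 2.71 CPM.

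Genes of other cells and states moved with this library. The summed level of 8 genes of serous cavity macrophages was 10.3 and 7.58 CPM in the control atria of mice V327 and V333 and 121 CPM in those of mouse V334, and it lay between 5.61 and 11.8 CPM in the 9 other libraries. Its most abundant gene over all libraries was Prg4, and Alox15, a lipoxygenase of peritoneal macrophages, went from 0.0851 and 0.310 to 17.4 CPM. The mast cell proteases Cpa3, Cma1 and Mcpt4 were at 3.11, 2.99 and 3.11 CPM, against at most 0.437 CPM in the other control atria. Kit, Hdc and Gata2 of the same list of 11 genes went the other way, at 0.771, 0.771 and 0.826 times the mean of the other control atria. The sum of that list, led by Gata2, was 29.0, 31.6 and 34.9 CPM in mice V327, V333 and V334. The sum of 9 erythroid genes, led by Hbb-bs, was 554, 414 and 2854 CPM, and that of 8 immediate early genes, led by Jun, was 143, 99.1 and 1243 CPM. None of the serous cavity, immediate early or erythroid genes in the table was at 0 in all libraries. Alox15 was at 0 in 2 of the ventricular libraries. The serous cavity and immediate early lists, Alox15 and the mast cell genes were chosen after values were seen, and the part of these cells and states in the results was not tested.

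**Figure D2:**
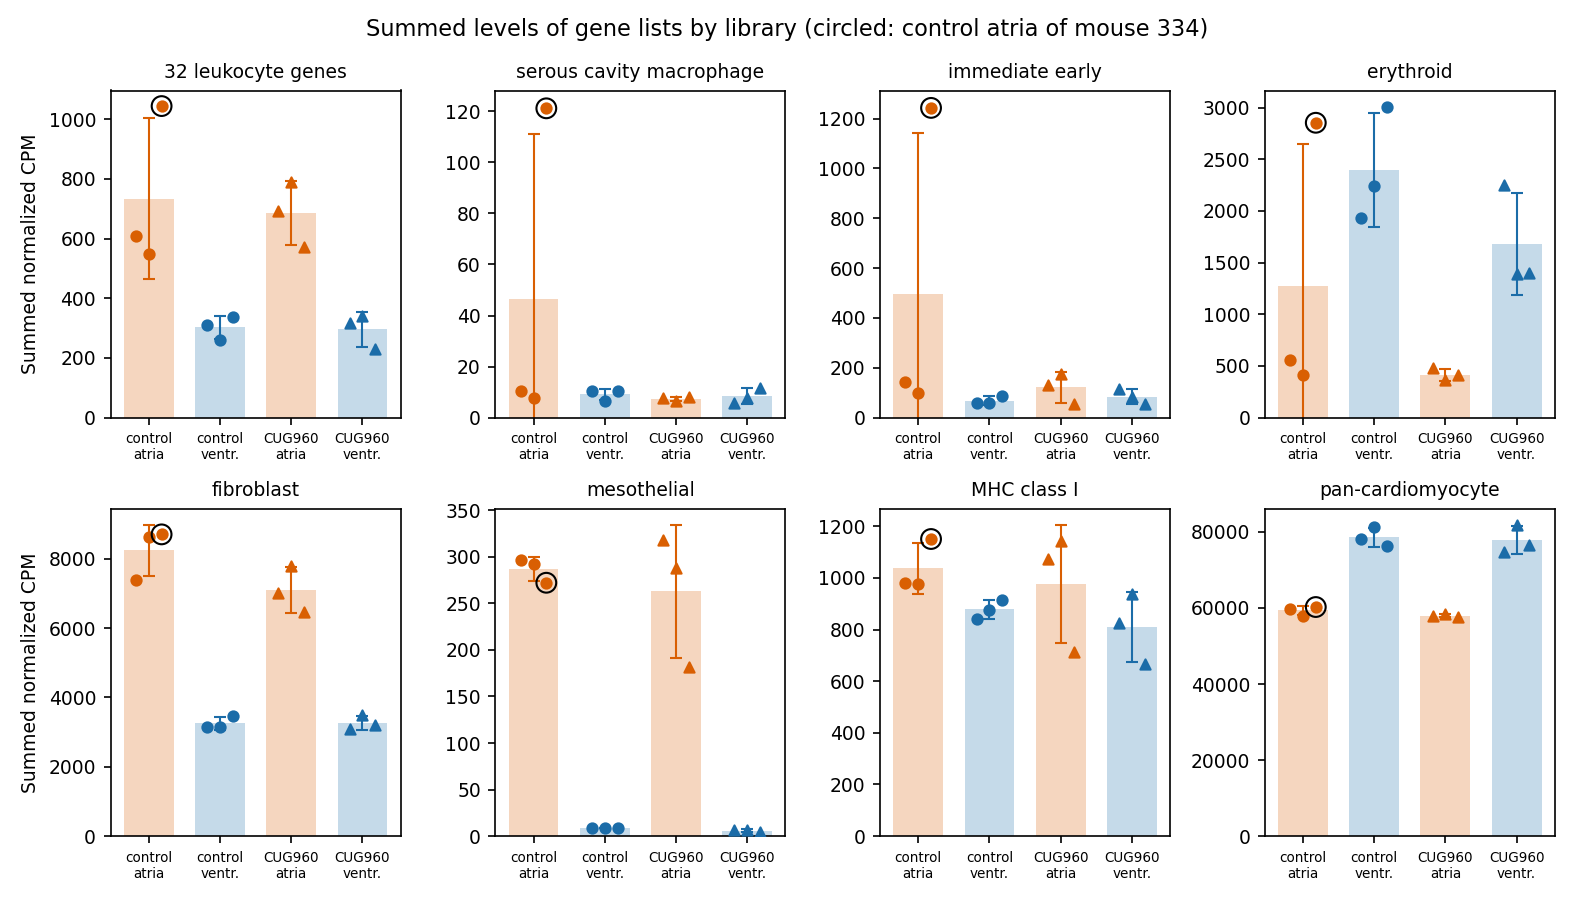
Summed normalized CPM of 8 gene lists in the 4 groups, with bars for the mean of 3 libraries, error bars for the SD (not drawn below 0) and points for libraries. The circled control atria of mouse V334 reach 1044 CPM for the 32 genes, 121 CPM for serous cavity macrophages and 1243 CPM for immediate early genes, whereas their fibroblast and cardiomyocyte sums lie near those of the other control atria.

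Macrophage genes were higher in atria than in ventricles, in controls and in CUG960 +dox mice. In controls, 21 of the 32 members tested were called higher in atria (adjusted P value under 0.05 and fold change of at least 1.5) and 0 lower, where 18.3% of all genes were called higher and 16.6% lower. Among CUG960 +dox mice 23 were called higher and 0 lower, where 17.2% of all genes were called higher and 16.4% lower. The median log2 fold change of the members was 0.82 in controls and 0.95 in CUG960 +dox mice, against 0.03 and 0.01 for all genes tested. Of the members, 20 were called in both genotypes and 8 in neither. Every atrial library was above every ventricular one for 21 members in controls and 24 in CUG960 +dox mice, and no member had the opposite order, where 64.6% and 62.6% of all genes were separated in either direction.

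The baseline of these comparisons moved with the scaling. Without any scaling beyond the library total, the median of all genes moved to 0.49 in controls and 0.40 in CUG960 +dox mice, and that of the members to 1.27 and 1.34. In controls 6918 genes were then called higher and 1452 lower, in place of 3194 and 2904, and in CUG960 +dox mice 6028 and 1539, in place of 3021 and 2879. The members called higher without this scaling numbered 23 in controls and 24 in CUG960 +dox mice, and 0 were lower. With the usual scaling but without the atria of mouse V334, the median of the members in controls was 0.61, and 16 were called higher.

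**Figure D3:**
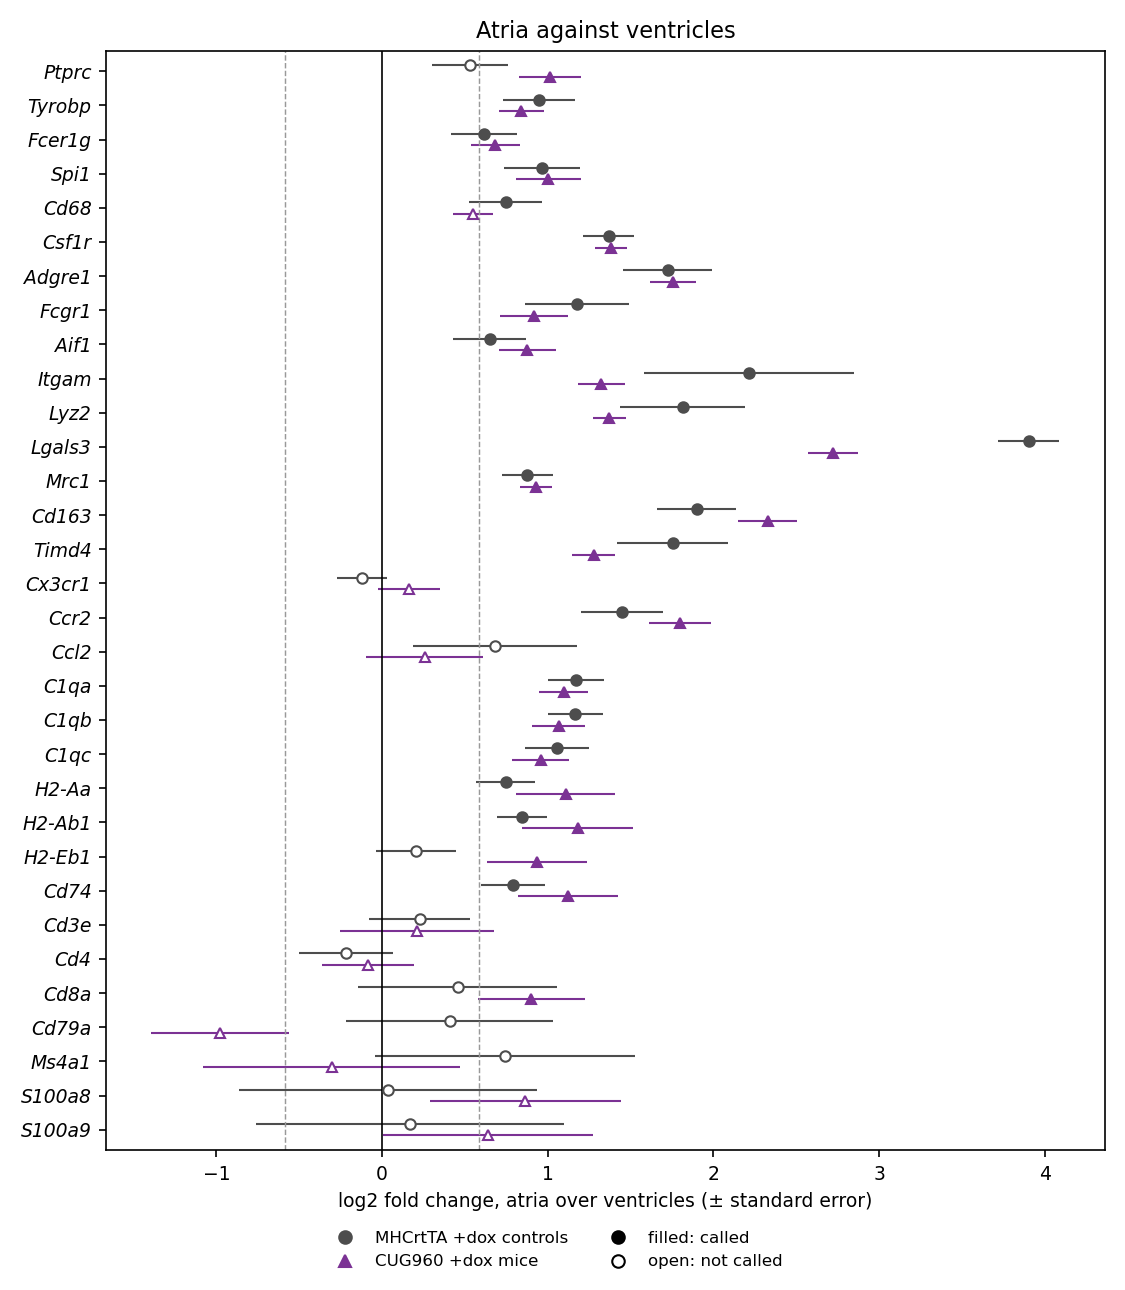
log2 fold change of atria over ventricles for the 32 genes, with standard errors, in controls (circles) and in CUG960 +dox mice (triangles). Filled symbols passed the call and dashed lines mark a fold change of 1.5, and Lgals3 lies farthest to the right, at 3.90 and 2.72.

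All 4 pan-leukocyte genes were called higher in atria of CUG960 +dox mice, and 3 of the 4 in controls, of which Fcer1g fell under the fold limit with the mouse as a block (log2 fold change 0.58, adjusted P = 0.02). Tyrobp, an adaptor that carries the signals of many myeloid receptors, was at 8.42, 8.13 and 14.5 CPM in control atria and at 5.43, 5.03 and 5.58 CPM in control ventricles, without overlap, a log2 fold change of 0.95 ± 0.22 (SE, n = 3 per group, adjusted P = 0.0057 by edgeR). Spi1, the transcription factor PU.1 that sets the myeloid fate, was 1.95-fold higher in control atria (adjusted P = 0.0068) and 2.01-fold higher in CUG960 +dox atria (adjusted P = 0.0023). Ptprc (CD45), the surface phosphatase of nearly all leukocytes, was at 6.36, 5.41 and 9.57 CPM in control atria and 5.92, 3.89 and 4.90 CPM in control ventricles. These groups overlapped, and the difference was not called (1.45-fold, adjusted P = 0.079). In CUG960 +dox mice it was at 7.19, 6.17 and 6.25 CPM in atria and 4.25, 2.69 and 2.67 CPM in ventricles, without overlap (2.02-fold, adjusted P = 0.0015).

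All 8 macrophage surface and lineage genes were called higher in atria of controls, and 7 of the 8 in CUG960 +dox mice. Csf1r was at 52.2, 53.2 and 71.7 CPM in control atria and at 20.7, 20.7 and 27.1 CPM in control ventricles. It was at 57.1, 59.2 and 56.2 CPM in CUG960 +dox atria and at 22.1, 24.4 and 19.1 CPM in CUG960 +dox ventricles. Atria and ventricles were thus separated in both genotypes, with log2 fold changes of 1.37 ± 0.15 (SE, adjusted P = 0.00012) and 1.38 ± 0.09 (adjusted P = 3.5e-06). Adgre1 (F4/80), a surface marker of macrophages, was 3.30-fold and 3.38-fold higher. Cd68, a lysosomal protein of macrophages, was 1.68-fold higher in control atria (adjusted P = 0.020), and in CUG960 +dox mice its 1.46-fold difference (adjusted P = 0.0040) was under the fold limit.

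Itgam and Lyz2 had their largest differences in controls, where the atria of mouse V334 entered. Itgam was 4.63-fold higher in control atria (adjusted P = 0.017), and without that single library its log2 fold change went from 2.21 to 0.97 (adjusted P = 0.0059). Lyz2 was 3.52-fold higher (adjusted P = 0.0037), and its log2 fold change went from 1.81 to 1.16 (adjusted P = 0.00014). In CUG960 +dox mice, which do not contain that library, the log2 fold changes were 1.32 ± 0.14 for Itgam (adjusted P = 5.7e-05) and 1.37 ± 0.10 for Lyz2 (adjusted P = 4.6e-06). The second row of Itgam held 0 to 22 counts per library and was tested, of the 5 comparisons, only in that of the genotype effect between chambers.

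Lgals3, the secreted lectin galectin-3, had the largest difference between chambers of all members. It was at 25.7, 16.8 and 19.7 CPM in control atria, but at 1.19, 1.43 and 1.52 CPM in control ventricles. In CUG960 +dox mice it was at 8.63, 10.4 and 7.95 CPM in atria and at 1.35, 1.52 and 1.18 CPM in ventricles. All atrial libraries were far above all ventricular libraries, and the log2 fold changes were 3.90 ± 0.18 in controls (adjusted P = 1.1e-06) and 2.72 ± 0.15 in CUG960 +dox mice (adjusted P = 1.1e-06). Per library, Lgals3 was 0.141 to 0.493 times Csf1r in atria and 0.0561 to 0.0689 times in ventricles, so it did not keep the proportion to Csf1r that C1qa did, at 0.788 to 1.03 and 1.02 to 1.16. Galectin-3 is also made by epithelial and other cells, and their part in its level was not tested.

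Resident macrophage genes differed from each other. Cd163, the scavenger receptor for haemoglobin, was at 21.0, 17.3 and 26.7 CPM in control atria and at 4.93, 4.46 and 7.99 CPM in control ventricles, a 3.73-fold difference (adjusted P = 0.00024), and it was 5.02-fold higher in CUG960 +dox atria (adjusted P = 6.7e-06). Timd4 was 3.37-fold and 2.42-fold higher, and Mrc1, the mannose receptor, 1.83-fold and 1.91-fold. Cx3cr1 stood out by its even level, between 2.42 and 3.81 CPM in the 12 libraries, with fold changes of 0.920 in controls (adjusted P = 0.53) and 1.12 in CUG960 +dox mice (adjusted P = 0.50). Its ligand Cx3cl1 was at 3.31, 3.63 and 3.36 CPM in control atria and 8.36, 8.10 and 8.06 CPM in control ventricles and was called lower in atria (log2 fold change −1.26 ± 0.09, adjusted P = 1.2e-05). For CUG960 +dox mice the log2 fold change of Cx3cl1 was −1.43 ± 0.12 (adjusted P = 1e-05). Of the ligands of Csf1r, Il34 was at 1.15, 1.14 and 1.75 CPM in control atria and 3.39, 3.41 and 4.20 CPM in control ventricles, and it was called lower in atria (log2 fold change −1.45 ± 0.21, adjusted P = 0.00045), and Csf1 was at 49.4 ± 0.295 CPM in control atria and 38.6 ± 8.69 CPM in control ventricles (SD, n = 3) and was not called (adjusted P = 0.058).

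Of the monocyte recruitment genes, Ccr2 was called and Ccl2 was not. Ccr2 was at 3.15, 2.24 and 3.63 CPM in control atria and 1.42, 0.845 and 1.03 CPM in control ventricles, 2.73-fold higher (adjusted P = 0.0013), and it was 3.48-fold higher in CUG960 +dox atria (adjusted P = 4.8e-05). Ccl2, a chemokine that draws Ccr2-positive monocytes, was at 2.89 CPM in the control atria of mouse V334 and between 0.478 and 1.38 CPM in the other libraries, and its groups overlapped in both genotypes.

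**Figure D4:**
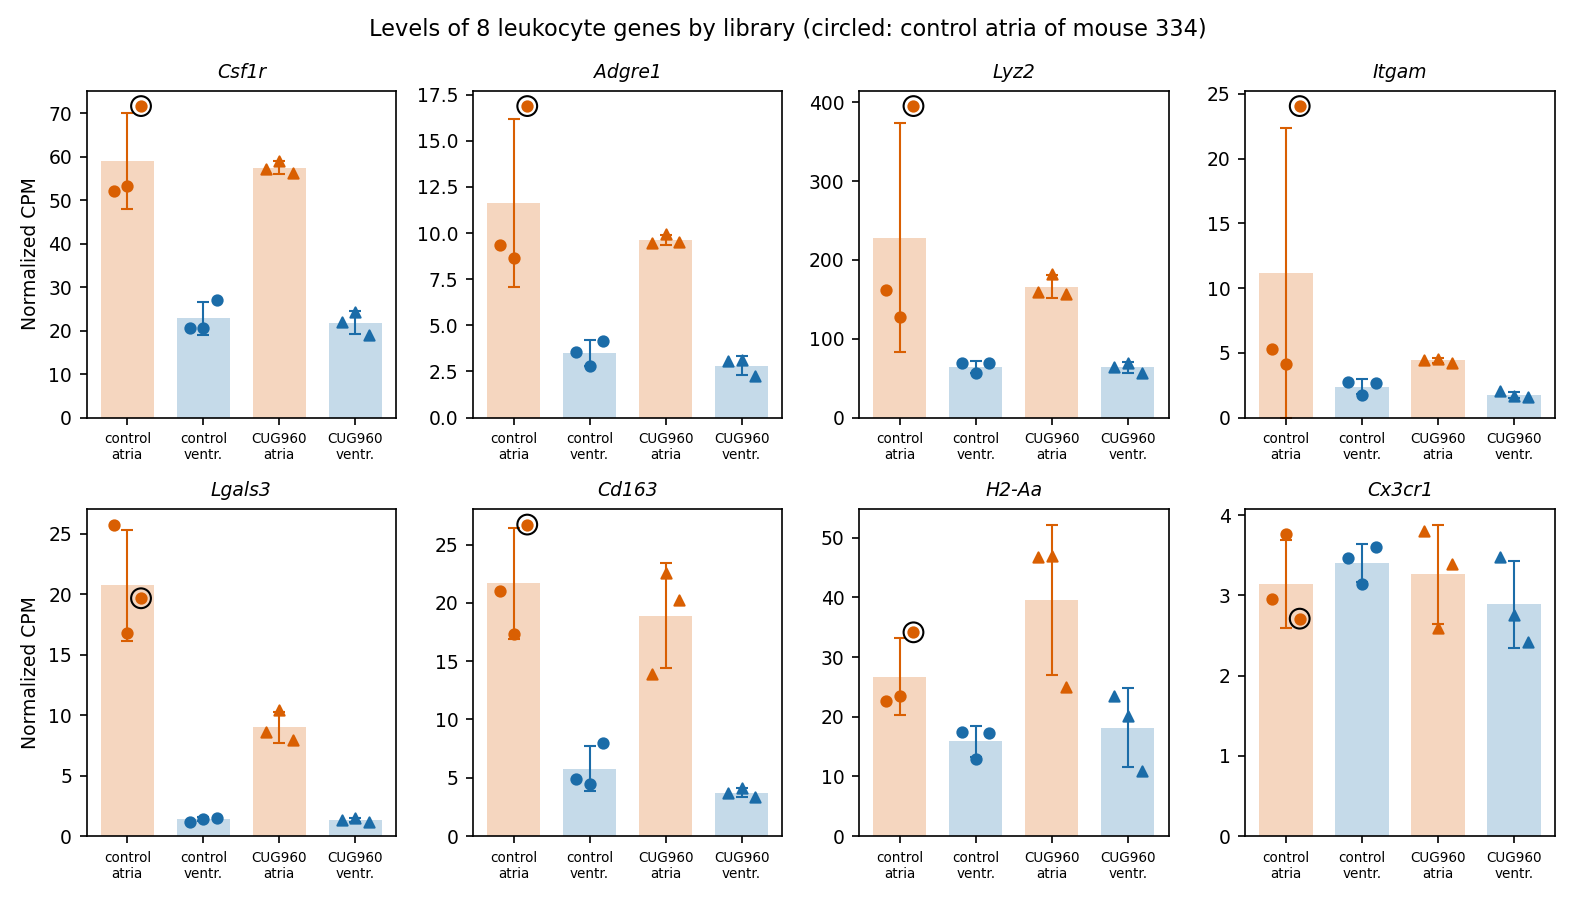
Normalized CPM of 8 of the genes in the 4 groups, with bars for the mean of 3 libraries, error bars for the SD (not drawn below 0) and points for libraries. Csf1r, Adgre1, Cd163 and Lgals3 separate atria from ventricles in both genotypes, Lgals3 is lower in CUG960 than in control atria, and Cx3cr1 is level.

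The 3 chains of C1q, the recognition part of the classical complement pathway, rose together in atria. C1qa was at 51.4, 47.8 and 73.6 CPM in control atria and at 23.6, 23.6 and 29.4 CPM in control ventricles. The log2 fold changes of C1qa, C1qb and C1qc were 1.17, 1.17 and 1.06 in controls, with adjusted P values of 0.0005, 0.00047 and 0.0018, and 1.10, 1.07 and 0.96 in CUG960 +dox mice. The 3 genes are neighbours on the minus strand of chromosome 4 (GRCm38), between position 136880129 at the end of C1qb and position 136898803 at the start of C1qa, with C1qc between them. The 250 bases before the RefSeq start of C1qb, from the GRCm38.p6 assembly, are shown because these genes moved together and because the stretch holds the letters GAGGAA, which form the core of many Spi1 sites. They lie at chr4:136886201-136886450 on the minus strand and are written 5′ to 3′ in the direction of the gene, with the match in capitals.
C1qb: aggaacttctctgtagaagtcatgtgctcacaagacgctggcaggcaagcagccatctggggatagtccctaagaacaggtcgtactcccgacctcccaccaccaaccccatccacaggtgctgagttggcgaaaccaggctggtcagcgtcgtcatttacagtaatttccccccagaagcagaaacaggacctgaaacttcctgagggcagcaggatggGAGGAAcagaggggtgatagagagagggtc

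The match begins 30 bases before the start of C1qb. GAGGAA was searched on both strands in the 250 bases before each start, and 12 of the 22 members with a promoter in the RefSeq table held it (54.5%), against 23.3% of 32851 promoters. The 12 were Aif1, C1qb, C1qc, Cd3e, Cd68, Cd79a, Cd8a, Fcgr1, Itgam, Mrc1, Ptprc and S100a8, which include genes that were higher in atria and genes that were not. A match of these letters does not show a bound site.

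The MHC class II genes were higher in atria too, in CUG960 +dox mice for all 4 and in controls for 3. H2-Aa, an α chain, was at 22.6, 23.4 and 34.1 CPM in control atria and 17.5, 12.8 and 17.3 CPM in control ventricles (1.68-fold, adjusted P = 0.0078). In CUG960 +dox mice it was at 46.7, 47.0 and 25 CPM in atria and 23.5, 20.1 and 10.9 CPM in ventricles (2.16-fold, adjusted P = 0.012). In both chambers mouse V123 was the lowest of its group. H2-Ab1, the paired β chain, was 1.80-fold and 2.27-fold higher in atria, and Cd74 was 1.73-fold and 2.18-fold higher. H2-Eb1 was called only in CUG960 +dox mice (1.91-fold, adjusted P = 0.026, against 1.15-fold and 0.49 in controls), and that difference between genotypes was not itself called (interaction log2 difference −0.74 ± 0.40, adjusted P = 0.50). Ciita, the coactivator on which MHC class II genes depend, was at 0.805, 1.51 and 1.60 CPM in control atria and between 0.592 and 0.906 CPM in the 6 ventricular libraries, and it was at 1.96, 2.06 and 0.963 CPM in CUG960 +dox atria, where it was called higher than in ventricles (2.09-fold, adjusted P = 0.016).

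H2-Ab1, H2-Aa and H2-Eb1 lie within the MHC region of chromosome 17 (GRCm38), from position 34257689 to position 34316674. The 250 bases before the RefSeq starts of H2-Aa (chr17:34287824-34288073, minus strand) and H2-Eb1 (chr17:34305617-34305866, plus strand) are shown because they share the letters CTGATTGG, known as the Y box of these promoters. Both are from GRCm38.p6, which is the C57BL/6J sequence and not that of FvB, and are written 5′ to 3′ with the match in capitals.
H2-Aa: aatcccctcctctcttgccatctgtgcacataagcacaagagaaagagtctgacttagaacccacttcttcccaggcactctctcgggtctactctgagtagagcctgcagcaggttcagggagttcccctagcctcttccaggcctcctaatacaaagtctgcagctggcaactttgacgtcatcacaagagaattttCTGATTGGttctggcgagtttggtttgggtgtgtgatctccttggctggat
H2-Eb1: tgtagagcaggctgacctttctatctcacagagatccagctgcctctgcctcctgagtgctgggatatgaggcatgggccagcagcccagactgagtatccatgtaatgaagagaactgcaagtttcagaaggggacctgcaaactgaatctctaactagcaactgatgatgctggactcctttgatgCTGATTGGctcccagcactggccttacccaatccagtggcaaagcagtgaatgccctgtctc

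The matches begin 51 and 62 bases before the starts. CTGATTGG on either strand was found in these 2 of the 22 members (9.09%) and in 3.83% of all 32851 promoters, and in no promoter that also held GAGGAA among the members. H2-Aa and H2-Eb1 thus share these letters although H2-Eb1 was far lower in every library.

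Lymphocyte and neutrophil genes were scarce, and 1 of these 7 genes was called between chambers. Cd3e, a chain of the T cell receptor complex, had 15 to 63 counts per library, Cd4 had 50 to 115, and their groups overlapped in both genotypes. Cd8a had 6 to 58 counts and was called higher in CUG960 +dox atria (1.87-fold, adjusted P = 0.041), but not without any 1 of the 3 mice (adjusted P between 0.065 and 0.27). With the mouse as a block the Cd8a call was lost as well. Cd79a, part of the B cell receptor, had 17 to 143 counts and Ms4a1 (CD20) had 2 to 142, with the highest count of both in the control atria of mouse V334. S100a8 and S100a9, calcium-binding proteins of neutrophils, varied widely among replicates, from 0.0632 to 0.727 CPM and from 0.0575 to 1.43 CPM within control atria.

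Leaving out single mice changed calls of the genes near the limits. In controls, 17 of the 21 calls held without each mouse in turn, and 15 also without the atria of mouse V334 alone. Fcer1g, the Fc receptor γ chain, and Aif1, an actin-binding protein of macrophages, were lost without mouse V327 (adjusted P = 0.086 and 0.072) and without mouse V334 (0.13 and 0.12). Cd68 was lost without mouse V327 (0.060) or V333 (0.054), and Fcgr1, the high-affinity Fc receptor, without mouse V333 (0.077). Without the atria of mouse V334 alone, Fcer1g (0.082) and Aif1 (0.081) were lost, and Cd68, Cd74 and H2-Aa fell under the fold limit, at log2 fold changes of 0.47, 0.57 and 0.53. In CUG960 +dox mice 18 of the 23 calls held, and Cd8a and the MHC class II genes did not. Without mouse V119, H2-Eb1 and Cd74 were lost (0.052 for both), and without mouse V120, H2-Eb1 (0.15), H2-Aa (0.076) and H2-Ab1 (0.064). Without mouse V120 Cd68 was called there, at 0.66 (adjusted P = 0.011).

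Within-library proportions set some genes apart from the common difference. Mrc1 was 0.554 to 0.653 times Csf1r in the 6 atrial libraries and 0.688 to 0.866 times in the 6 ventricular ones, and Cx3cr1 was 0.0378 to 0.0707 and 0.113 to 0.168 times Csf1r. Both were thus lower relative to Csf1r in atria. Cd163 was on the whole higher relative to Csf1r in atria, at 0.243 to 0.403 against 0.168 to 0.295 in ventricles, with some overlap. Adgre1 was 0.163 to 0.235 times Csf1r in atria and 0.118 to 0.171 times in ventricles.

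Other macrophage and immune genes, taken from lists that do not repeat the members, were called in shares that ranged from above to below those of all genes, of which 18.3% were called higher and 16.6% lower in atria of controls, and 17.2% and 16.4% in CUG960 +dox mice. Of 276 genes of these lists together, 108 were called higher and 17 lower in atria of controls, and 120 and 23 of 275 in CUG960 +dox mice. Of 24 further resident macrophage genes tested, 20 were called higher in atria of controls and 15 in CUG960 +dox mice, and 0 lower, with median log2 fold changes of 0.99 and 0.82. Vsig4, a complement receptor of tissue macrophages, was at 18.3, 17.6 and 20.8 CPM in control atria and at 0.262, 0.314 and 0.580 CPM in control ventricles, a log2 fold change of 5.60 ± 0.25 (adjusted P = 8e-07). Apoe was 5.02-fold higher in control atria, but other cells make it as well. Of the complement genes, 12 of 19 were called higher in controls and 15 of 20 in CUG960 +dox mice, with 0 and 1 lower and medians of 1.36 and 1.13. Among Fc receptor and ITAM signalling genes the counts were 11 of 21 and 14 of 21, with 2 lower in each genotype, and Syk, the kinase of this pathway, was 2.14-fold and 2.27-fold higher. Chemokines and their receptors went both ways, with 10 of 29 higher and 5 lower in controls and 10 and 4 of 29 in CUG960 +dox mice, and median log2 fold changes of 0.99 and 0.24. Their summed level, led by Cxcl12, went the other way and was 0.474 and 0.537 times as high in atria. Of the monocyte list 5 of 14 genes were higher and 1 lower in controls, and 4 and 2 of 13 in CUG960 +dox mice, and of the dendritic cell list 3 and 2 of 14, a share near that of all genes, and 7 and 2 of 14. In the B and plasma cell list, 5 of 18 genes were higher and 0 lower in controls, and 3 and 2 of 16 in CUG960 +dox mice, with medians of 0.49 and −0.06. For mast cells and basophils 5 of 7 genes were higher in controls, where the atria of mouse V334 entered, and 3 of 7 in CUG960 +dox mice. None was lower, and the medians were 2.98 and 0.77. In the T and NK cell list, 0 of 25 genes in controls and 3 of 28 in CUG960 +dox mice were called higher, with 1 and 2 lower and medians of 0.16 and 0.49, so that fewer were called than among all genes. Genes of MHC class I, which nearly all cells carry, gave 0 calls of 14 in either genotype by edgeR, where 6 and 2 had an unadjusted P value under 0.05.

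Genes of non-leukocytes moved between chambers as well. The summed level of 12 fibroblast genes, led by Gsn, was 7379, 8635 and 8700 CPM in control atria and 3146, 3138 and 3471 CPM in control ventricles, a ratio of the means of 2.53, and the ratio of the 32 leukocyte genes was 2.43, or 1.92 without the atria of mouse V334. The sum of 8 mesothelial genes, led by Upk3b, was 297, 293 and 272 CPM in control atria and 8.48, 8.97 and 8.17 CPM in control ventricles. The sum of 10 cardiomyocyte genes common to both chambers was 0.755 times as high in control atria, and that of 9 erythroid genes 0.532 times, or 0.202 times without the atria of mouse V334. None of the fibroblast, mesothelial or cardiomyocyte genes was at 0 in all libraries. The part of these cells in the difference of the leukocyte genes was not tested.

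CUG960 +dox mice and controls differed in few of the 32 genes. In atria 0 members were called higher and 1 lower in CUG960 +dox mice, where 3.37% of all genes were called higher and 2.12% lower (5.49% in all) and 4 members had an unadjusted P value under 0.05. In ventricles 0 members were called in either direction by edgeR, where 4.75% of all genes were called, with 1.76% of all genes lower in CUG960 +dox mice, and 4 members had an unadjusted P value under 0.05. DESeq2 called 4 members lower there, and 390 of all 16909 genes tested. The median log2 fold change of the members was −0.15 in atria and −0.11 in ventricles, against −0.01 for all genes in both chambers. Without mouse V334 the median in atria was 0.11, and without mouse V123 the median in ventricles was 0.006, so the sign of either median rested on a single mouse. The groups did not overlap for 2 members in each chamber, all lower in CUG960 +dox mice, where 17.2% of all genes in atria and 15.0% in ventricles were lower without overlap.

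**Figure D5:**
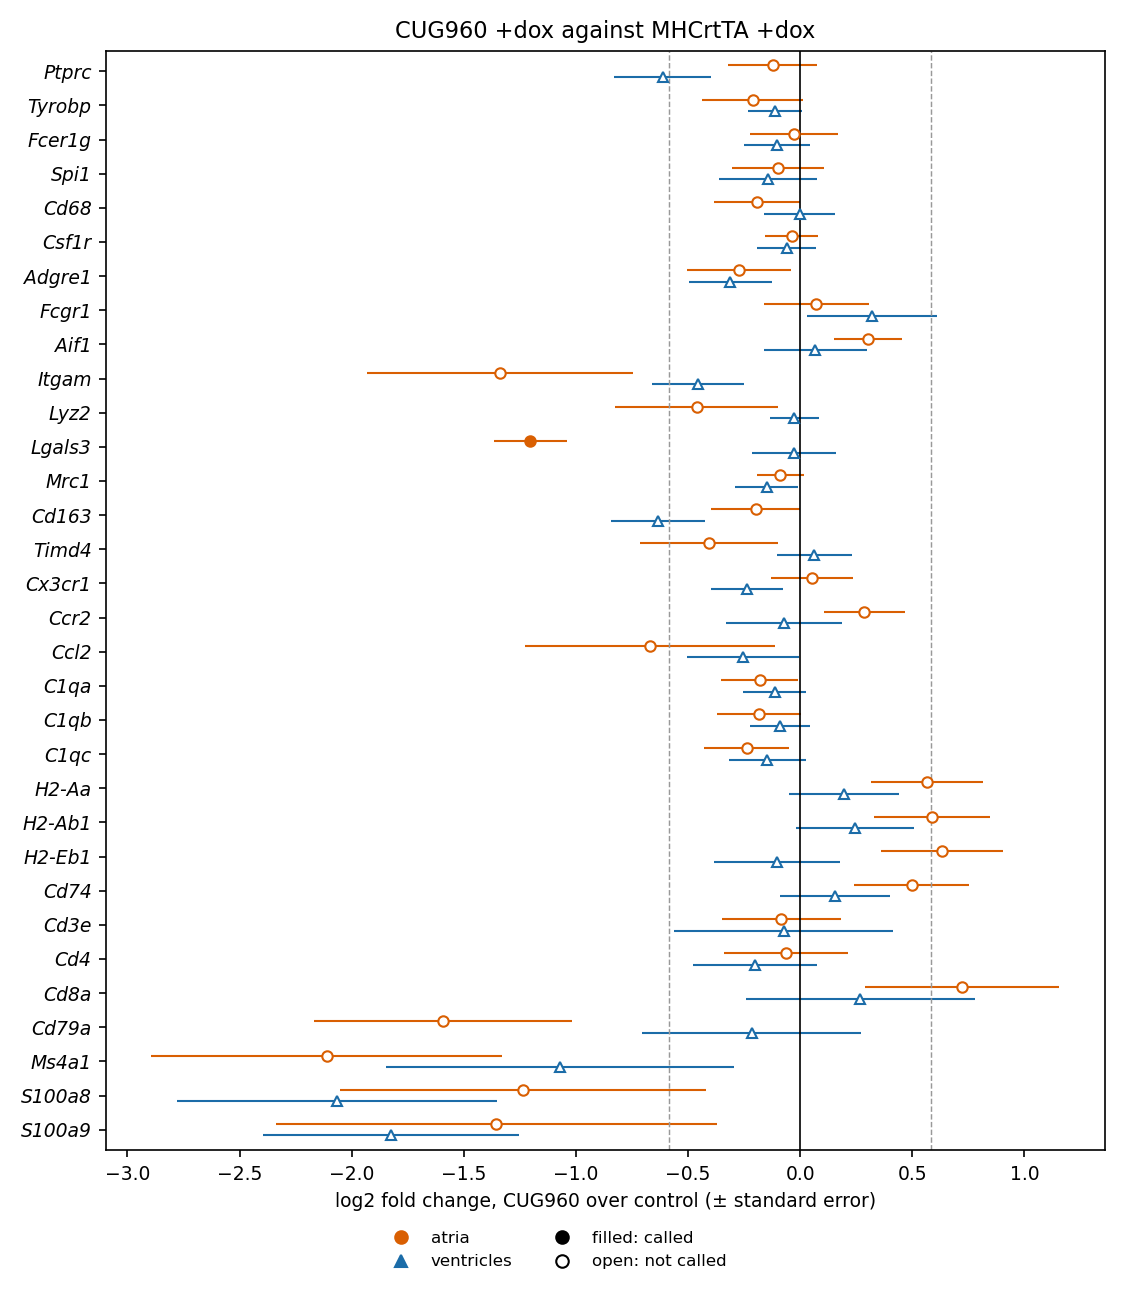
log2 fold change of CUG960 +dox mice over MHCrtTA +dox controls for the 32 genes, with standard errors, in atria (circles) and ventricles (triangles). Filled symbols passed the call and dashed lines mark a fold change of 1.5, and the single filled symbol is Lgals3 in atria, at −1.20.

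Lgals3 was the member that fell in CUG960 +dox atria. With 8.63, 10.4 and 7.95 CPM against 25.7, 16.8 and 19.7 CPM, every CUG960 +dox library was below every control library. The log2 fold change was −1.20 ± 0.16 (SE, n = 3 per group, adjusted P = 0.0031), and it was called in each of the 13 settings tried, with an adjusted P value between 0.0035 and 0.019 when 1 mouse was left out. In ventricles the values were 1.35, 1.52 and 1.18 CPM against 1.19, 1.43 and 1.52 CPM and overlapped (log2 fold change −0.03 ± 0.19, adjusted P = 0.94). The genotype effect in ventricles minus that in atria was 1.17 ± 0.24 on the log2 scale (adjusted P = 0.032), the single member called of 33 rows tested, where 1.38% of all genes were called and 0.693% in this direction. It was not called without mouse V327 (adjusted P = 0.12), V333 (0.052), V334 (0.067), V119 (0.15), V120 (0.091) or V123 (0.082), nor without the atria of mouse V334 alone (0.059), with log2 differences between 0.90 and 1.34. Without scaling beyond the library total, all genes were called 154 times as higher and 81 times as lower in the interaction, in place of 127 and 126. Lgals3 lies on the plus strand of chromosome 14 (GRCm38), from 47367751 to 47386160. In the same atria the mesothelial sum was 319, 288 and 182 CPM in CUG960 +dox mice and 297, 293 and 272 CPM in controls. These groups overlapped, and the part of mesothelial cells in Lgals3 was not tested.

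The general macrophage genes did not pass the test between genotypes. Csf1r was at 57.1, 59.2 and 56.2 CPM in CUG960 +dox atria and at 52.2, 53.2 and 71.7 CPM in control atria, and the groups overlapped (log2 fold change −0.04 ± 0.12, adjusted P = 0.87). In ventricles its log2 fold change was −0.06 ± 0.13 (adjusted P = 0.82). Itgam had an atrial log2 fold change of −1.34 ± 0.59 (adjusted P = 0.17), with all 3 CUG960 +dox libraries between control mice V327 and V333, and without mouse V334 it was −0.09 (adjusted P = 0.73). Lyz2 had −0.46 ± 0.36 (adjusted P = 0.43), and without mouse V334 the sign turned, at 0.20 (adjusted P = 0.35). The C1q chains had log2 fold changes from −0.24 to −0.18 in atria and from −0.15 to −0.09 in ventricles, all within 2 standard errors of 0. Values this close to 0 do not show that the genotypes were equal.

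MHC class II genes had the highest log2 fold changes between genotypes of the list in atria, apart from Cd8a, and were high in 2 of the 3 CUG960 +dox mice. Cd74 was at 149 and 168 CPM in the atria of mice V119 and V120, above the controls at 85.0, 77.8 and 122 CPM, but at 83.8 CPM in those of mouse V123. H2-Aa and H2-Ab1 had the same order, with mouse V123 at 25 and 22.7 CPM within the control range. None of the 4 genes was called (log2 fold changes 0.50 to 0.63, adjusted P between 0.16 and 0.24). Without mouse V123 they were called for H2-Aa (0.81, adjusted P = 0.030), H2-Ab1 (0.84, adjusted P = 0.025) and Cd74 (0.74, adjusted P = 0.043). In ventricles the log2 fold changes were between −0.10 and 0.25, and mouse V123 was again lowest. Mouse V123 was the lowest of its group for 23 of the 32 members in atria and 24 in ventricles. Its median ratio to the mean of mice V119 and V120 was 0.823 in atria and 0.782 in ventricles over the members. Over all genes that ratio was 0.996 and 0.995. The MHC class I sum of mouse V123 was also the lowest, at 714 CPM in atria and 668 CPM in ventricles against 824 to 1144 CPM in mice V119 and V120.

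In ventricles 4 members had an unadjusted P value under 0.05, S100a8, S100a9, Cd163 and Ptprc. S100a9 was at 0.172, 0.254 and 0.224 CPM in CUG960 +dox ventricles and at 1.57, 0.333 and 0.402 CPM in control ventricles, without overlap (log2 fold change −1.83 ± 0.57, adjusted P = 0.077). Cd163 was at 3.72, 4.09 and 3.37 CPM against 4.93, 4.46 and 7.99 CPM, also without overlap (−0.63 ± 0.21, adjusted P = 0.09). Without mouse V334, which had the highest level, its log2 fold change was −0.33 (adjusted P = 0.22). Ptprc was at 4.25, 2.69 and 2.67 CPM against 5.92, 3.89 and 4.90 CPM, with overlap (−0.61 ± 0.22, adjusted P = 0.11). DESeq2 called these 3 genes and S100a8 lower, with adjusted P values of 0.0087, 0.019, 0.031 and 0.024. By edgeR, Ptprc was called without mouse V119 (adjusted P = 0.036), and S100a8 and S100a9 without mouse V333 (0.042 and 0.045). Without mouse V327, whose ventricles had the highest levels of both, the log2 fold changes of S100a8 and S100a9 were −0.76 and −0.76 (adjusted P = 0.48 and 0.30), in place of −2.07 and −1.83. The sum of 8 platelet genes was also highest in these ventricles, at 32.7 CPM against 7.70 and 13.2 CPM in the other control ventricles. It was 9.33, 6.96 and 6.13 CPM in CUG960 +dox ventricles. By edgeR 0 of the 8 were called and 6 had an unadjusted P value under 0.05 (median log2 fold change −1.8). The part of platelets was not tested. Without scaling beyond the library total 779 genes were called higher and 187 lower in ventricles, in place of 507 and 297, and still 0 members. In atria, Cd79a (−1.59 ± 0.58, adjusted P = 0.10) and Ms4a1 (−2.11 ± 0.78, adjusted P = 0.11) had the lowest values. In controls they were at 0.912 and 0.906 CPM in mouse V334 and at 0.138 to 0.259 CPM in mice V327 and V333, and without mouse V334 their log2 fold changes were −0.62 (adjusted P = 0.35) and −0.79 (0.41). DESeq2 called both lower (0.034 and 0.024).

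With both directions pooled, the share of further leukocyte genes called between genotypes was near that of all genes. In atria, however, every call was lower. Of 281 genes of the immune lists together, 0 were called higher and 12 lower in CUG960 +dox atria (4.27%). Among all genes 3.37% were called higher there and 2.12% lower (5.49% in all). Of 262 in ventricles, 6 were called higher and 7 lower (4.96%, against 4.75% of all genes). Of 24 resident macrophage genes, 4 were called lower in CUG960 +dox atria (Lyve1, Cd209f, Cd209g and Cbr2) and 3 higher in CUG960 +dox ventricles (Gas6, Gpnmb and Clec10a), where 2.12% of all genes were called lower in atria and 4.75% were called in either direction in ventricles. Lyve1, a hyaluronan receptor of resident macrophages and of lymphatic vessels, was at 18.9, 26.0 and 26.2 CPM in CUG960 +dox atria and at 38.9, 33.3 and 46.4 CPM in control atria, without overlap. Its log2 fold change of −0.74 ± 0.15 (adjusted P = 0.016) was called without each mouse in turn. Cd209f (−0.93 ± 0.18, adjusted P = 0.013) was lost without mouse V120 (adjusted P = 0.055), and Gas6 (0.63 ± 0.08, adjusted P = 0.0023), a ligand that bridges dying cells to macrophages, fell under the fold limit without mouse V120, at 0.55. Cd209g, Gpnmb and Clec10a were called in 1, 2 and 1 of the 6 fits without a mouse, as was Cbr2 in 1, which was named after its values were seen. Of the chemokines, 4 of 27 were called lower and 1 higher in CUG960 +dox ventricles, where 1.76% of all genes were lower, and 0 of 30 in atria by edgeR, where 7 had an unadjusted P value under 0.05. The lower ones were Cxcl12 (−0.72 ± 0.12, adjusted P = 0.0072), Cxcl14 (−0.67 ± 0.13, adjusted P = 0.011), which fell under the fold limit without mouse V119, at −0.57, and Ccl9 and Ccl11, which were named after their values were seen and were called in 2 and 1 of the 6 fits without a mouse. Ccl21a, which lymphatic vessels make, was the higher one (0.80 ± 0.14, adjusted P = 0.0079). In atria 3 of 13 monocyte list genes were lower (Ace, Fn1 and Vcan) and 0 higher, all 3 of which other heart cells also express. In ventricles 1 of 11 was higher, Nr4a1 (0.96 ± 0.24, adjusted P = 0.037), which is also an immediate early gene and was called in 2 of the 6 fits without a mouse, and 1 was lower, Ly6c1 (−0.61 ± 0.12, adjusted P = 0.014), which endothelial cells also express and which fell under the fold limit without mouse V119 or V333, at −0.50 and −0.54. Vcan was called without each mouse in turn, whereas Fn1 was lost without mouse V119 (adjusted P = 0.072), V120 (0.094) or V123 (0.066), and Ace fell under the fold limit without mouse V119 or V334, at −0.55 in both. The endothelial adhesion genes Icam2 and Pecam1, 2 of 13 in their list, were lower in atria as well, at −0.75 ± 0.09 and −0.71 ± 0.10. In ventricles 1 of 13 dendritic cell genes was lower, Clec9a (−0.65 ± 0.17, adjusted P = 0.048), called in 1 of the 6 fits without a mouse. Of 19 complement genes there, Cfd, which adipocytes make, was lower (−1.92 ± 0.30, adjusted P = 0.0051) and Masp1 higher (1.01 ± 0.14, adjusted P = 0.0028), and both were called without each mouse in turn. Of the B and plasma cell list, 3 of 19 genes were called lower in CUG960 +dox atria and 0 higher, and 6 had an unadjusted P value under 0.05, while in ventricles edgeR called 0 of 16, 2 of them with an unadjusted P value under 0.05. The 3 genes, named after their values were seen, all had mean levels under 1 CPM. Iglc2, a λ immunoglobulin light chain constant region, had 1, 2 and 3 counts in CUG960 +dox atria and 11, 26 and 67 in control atria (adjusted P = 0.019), and was called in 4 of the 6 fits without a mouse. Igkc, the κ light chain constant region, was at 0.321, 0.180 and 0.176 CPM against 0.432, 0.575 and 1.80 CPM, with the highest value in mouse V334 (−2.05 ± 0.56, adjusted P = 0.045). Blk, a kinase of B cells, was at 0.342, 0.431 and 0.404 CPM against 0.589, 0.908 and 0.791 CPM (−0.96 ± 0.23, adjusted P = 0.030). Igkc and Blk were each called in 1 of the 6 fits without a mouse, and without mouse V334 the log2 fold change of Igkc was −1.16 (adjusted P = 0.087). Among T and NK cell genes and MHC class I genes edgeR called 0 in either chamber, where 2 and 2 of the first and 1 and 1 of the second had an unadjusted P value under 0.05 in atria and ventricles. Of the mast cell and basophil list edgeR also called 0 in either chamber. In atria 6 of its 8 genes tested had an unadjusted P value under 0.05, with a median log2 fold change of −1.96. In ventricles 0 of 5 did. Several genes of this list were high in the control atria of mouse V334.

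Sums of endothelial genes had lower means in CUG960 +dox mice, with overlap in atria and none in ventricles. The sum of 12 endothelial genes, led by Fabp4, was 1160, 1355 and 1221 CPM in CUG960 +dox atria against 1544, 1684 and 1338 CPM in control atria, and 1079, 1122 and 1192 CPM against 1624, 1513 and 1453 CPM in ventricles. The sum of 12 fibroblast genes was 0.861 times that of controls in atria and 1.0 times in ventricles. That of 10 Schwann cell and neuron genes was 0.671 and 0.619 times, without overlap in either chamber. In ventricles the mural cell sum was 0.789 times and the adipocyte sum 0.817 times, also without overlap. The mesothelial sum in ventricles (0.692 times) was lower without overlap too. So were the atrial cardiomyocyte sum (0.83 times) and the lymphatic endothelial sum (0.875 times) in atria. Others went up without overlap, the lymphatic endothelial sum in ventricles (1.2 times) and the ventricular cardiomyocyte sum in atria (1.23 times). The summed level of the 32 leukocyte genes was 694, 789 and 573 CPM in CUG960 +dox atria against 609, 548 and 1044 CPM in control atria, and 317, 342 and 230 CPM against 309, 261 and 336 CPM in ventricles. The groups overlapped in both chambers, with ratios of the means of 0.934 and 0.981. Without the atria of mouse V334 the ratio in atria was 1.18, so its direction rested on that library. Some sums of the further leukocyte cell lists were lower without overlap. In atria these were the monocyte (0.519 times), neutrophil (0.682), mast cell and basophil (0.702) and B and plasma cell (0.796) sums. In ventricles they were the monocyte (0.764), dendritic cell (0.804) and B and plasma cell (0.867) sums. The resident macrophage sum, led by Apoe, was higher in ventricles without overlap (1.23 times). The part of endothelial and other cells in these values was not tested.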

How the data were processed

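Poly(A) RNA of 12 libraries was sequenced by the authors on a stranded, paired-end protocol and quantified with RSEM 1.3.1 on mm10 (GRCm38). The deposited table holds expected counts per gene, all of them whole numbers, with no column of another series. RSEM divides reads among similar genes, which makes levels of near copies uncertain, and its reference is C57BL/6J, whereas the mice were FvB. Library totals ran from 116127966 to 160676189 counts.

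Counts were tested with the edgeR quasi-likelihood test (edgeR 4.0.16, R 4.3.3) after filterByExpr and TMM scaling, across all genes, with Benjamini-Hochberg adjustment over all genes tested. Calls required an adjusted P value below 0.05 together with a 1.5-fold difference or more, or, in the interaction, the adjusted P value alone. The 5 comparisons were genotype in atria, genotype in ventricles, chamber in each genotype, and the interaction, and those that share libraries are not independent. CPM shown were scaled over all 12 libraries. The mean and SD are over 3 mice, and an exact permutation test of 3 against 3 could not go below p = 0.1. Alternatives were DESeq2 1.42.0, RLE size factors, no filter, a single fit of all libraries, omission of the fold limit, a block for the mouse, and omission of 1 mouse at a time. Leaving out the atria of mouse 334 alone and omitting scaling were added after seeing the data. The procedure was also tried on simulated data, of which no outcome is given here.

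The 32 members and the gene lists were chosen with earlier results of these data known. From the lists, the genes named were those called in at least 1 comparison at a mean of at least 1 CPM, up to 3 per list and comparison by P value, the most abundant gene of each list of other cells, and Csf1, Il34, Cx3cl1 and Ciita. Atria and ventricles came from the same mice. Over 18327 genes, deviations from the group means correlated between chambers of the same mouse at 0.0302 to 0.135 (6 pairs) and between different mice of the same genotype at -0.141 to 0.0536 (12 pairs). Deviations within a group are tied to each other, so these ranges are not independent. Promoters are those of RefSeq (GRCm38.p6), which held 22 of the 32 members, and gene positions are from GENCODE M21 (GRCm38). Figures were drawn with Python 3.11.15 and matplotlib 3.10.9.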

Additional observations from a re-analysis of the deposited data

Results flagged for a closer look

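The CUG960 effect differed between chambers, by the interaction test of edgeR with Benjamini-Hochberg adjustment, for 1 of the 32 genes and for 4 of 286 genes of the other immune lists (1.4%), a share near the 1.38% of all genes called. For Lgals3 the effect in ventricles minus that in atria was 1.17 on the log2 scale (adjusted P = 0.032), and it was not called without any 1 of the 6 mice. For the chemokine Cxcl14 it was −1.25 (adjusted P = 0.040), with 4.37, 4.50 and 7.10 CPM in control atria, 9.27, 8.10 and 6.40 CPM in CUG960 +dox atria, 14.2, 13.2 and 14.3 CPM in control ventricles and 7.46, 8.38 and 10.3 CPM in CUG960 +dox ventricles. It was not called without mouse V119 (adjusted P = 0.19), V120 (0.20), V327 (0.17) or V333 (0.19). For Blk, a B cell kinase with a mean level under 1 CPM that was named after its values were seen, it was 1.62 (adjusted P = 0.027), and it was called without mouse V327 (0.034) and not without any of the other 5 mice. For Gas6 it was 0.61 (adjusted P = 0.036) and for Il13ra1, a receptor chain for interleukin 13, 0.53 (adjusted P = 0.030). Gas6 was not called without mouse V119 (0.085), V123 (0.10), V327 (0.12), V333 (0.18) or V334 (0.13), and Il13ra1 was not called without mouse V119 (0.17), V123 (0.14), V327 (0.091), V333 (0.13) or V334 (0.11).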

How the results depend on the processing

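No member reversed a called direction under any alternative. In controls the count of members higher in atria went from 21 to between 18 and 19 without a mouse. It went to 16 without the atria of mouse V334 alone. In CUG960 +dox mice it went from 23 to between 20 and 22 without a mouse. Without scaling beyond the library total the counts were 23 in controls and 24 in CUG960 +dox mice. Members called lower in atria numbered 0 throughout. With the mouse as a replicate block the counts were 20 and 22, Fcer1g falling under the fold limit in controls (log2 fold change 0.58) and Cd8a being lost in CUG960 +dox mice (adjusted P = 0.059), and 1 for the interaction. In the genotype comparison of atria, members called higher ranged from 0 to 3 when a mouse was left out, and members called lower went from 1 to 3 with DESeq2 and to 3 with no filter on low counts. Of all genes, 434 of 17650 were called lower there with DESeq2 and 453 of 28064 with no filter. In ventricles members called lower went from 0 to 4 with DESeq2 and to 4 with no filter, and ranged from 0 to 2 when a mouse was left out. All genes called lower in ventricles numbered 390 of 16909 with DESeq2 and 409 of 27223 with no filter. The interaction went from 1 to 0 without the atria of mouse V334 alone, and leaving out a mouse gave 0 to 0. The causes were not tested. With 3 mice per group, genes near the limits depend on single mice, and for lymphocyte and neutrophil genes counts under 100 in many libraries limit the precision.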
